A study of Mus musculus with 6 samples.

Results

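Genes that modify, fold and trim collagen were followed in mouse lung cells after exposure to an antibody against hedgehog ligands. The set is 10 named genes of the 48397 gene symbols in the count files, taken by symbol with earlier results of these data known. They encode the catalytic alpha subunits of collagen prolyl 4-hydroxylase (P4ha1, P4ha2, P4ha3), the lysyl hydroxylases (Plod1, Plod2, Plod3), the collagen chaperone HSP47 (Serpinh1), the procollagen C-proteinase (Bmp1) and its enhancers (Pcolce, Pcolce2). Each of the 10 passed the filter on low counts. The title of the series asks how hedgehog signalling bears on PDGF signalling when alveolar septa form after birth.

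The cells came from mice of genotype PdgfraEGFP/+, in which one copy of the PDGF receptor gene Pdgfra carries a green reporter. Pregnant dams were injected intraperitoneally at E18.5 with 5E1, an antibody that binds hedgehog ligands, or with control IgG, and lungs were harvested from PdgfraEGFP/+ pups at P8. Live EGFP+ cells were sorted from them, so both groups carry the reporter allele. There are 3 libraries per group, and it is not stated whether each is 1 pup, a pool or a litter. Y-linked genes had 6134, 3592 and 2 reads in IgG replicates 1 to 3 and 2, 6913 and 5307 reads in 5E1 replicates 1 to 3. The libraries of a group thus do not all come from the same animals. The p-values reflect the spread between libraries, which may in part be technical.

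Collagen chains are modified while they enter the endoplasmic reticulum. Prolyl 4-hydroxylase makes the hydroxyprolines that keep the triple helix stable at body temperature, and lysyl hydroxylases make the hydroxylysines that carry sugars and later form crosslinks. HSP47 binds the folded helix and travels with it towards the Golgi. Outside the cell, Bmp1 removes the C-propeptide so that fibrils can assemble, and the enhancers speed that cut. In the septating lung, fibroblasts lay down collagen together with elastin.

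Gene reads summed to 16958433 to 28405457 per IgG library and to 18857199 to 34318583 per 5E1 library. Of 16198 genes tested, 3757 (23.2%) changed, with 12.1% higher and 11.1% lower in 5E1. Ptch1, a receptor gene induced by hedgehog signalling, lay at 405 to 415 CPM (reads scaled to a common library size) in IgG and at 82.1 to 102 CPM in 5E1. Pdgfra lay at 502 ± 77.5 and 645 ± 73.3 CPM (SD, n = 3 each). Its change did not pass an edgeR adjusted p of 0.05. It passed in 3 of 15 alternatives, over which the log2 fold change ran from 0.22 to 0.44. Fibroblast genes were abundant, with Col1a1 at 14753 ± 2608 CPM in IgG and 23087 ± 8897 CPM in 5E1. Leukocyte markers were higher in 9 of 13 tested members and lower in none, with a summed level of 106 to 129 CPM in IgG and 236 to 402 CPM in 5E1. Endothelial markers summed to 164 to 193 and 184 to 362 CPM (1 of 10 higher), epithelial markers to 442 to 699 and 492 to 1508 CPM (1 of 12 higher), and mesothelial markers to 13.3 to 46.9 and 42.8 to 128 CPM (2 of 6 higher). The sums in 5E1 had a mean of 255 ± 93.9 CPM for endothelial and 844 ± 575 CPM for epithelial markers (SD, n = 3). Leaving out 5E1 replicate 2 turned the log2 fold changes of Emcn, an endothelial marker (-0.032), and Epcam (-0.045) negative. In that fit 1 endothelial and 1 epithelial marker were called higher. Without 5E1 replicate 3, 4 endothelial and 4 epithelial markers were called higher. For mesothelial markers the number was 0 without IgG replicate 1, 3 without IgG replicate 3, and 1 without IgG replicate 2, 5E1 replicate 2 or 5E1 replicate 3. None of the defining markers was at 0, Ptprc being at 9.45 and 19.5 CPM, Pecam1 at 20.4 and 34.6 CPM and Epcam at 1.08 and 1.32 CPM. The part of such cells in the results below was not tested. In bulk RNA, fewer cells of a type and less RNA per cell cannot be told apart.

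Of the 10 collagen-processing genes, 3 rose (Pcolce2, Plod2 and P4ha1), 1 fell (P4ha3) and 6 did not pass an edgeR adjusted p of 0.05. That is 40% of the set, which was chosen with earlier results known, against 23.2% of all genes tested. The median log2 fold change of the 10 was 0.17, against 0.00087 over all genes, and the values ran from -1.08 to 1.44. Groups did not overlap for 6 members, 4 higher and 2 lower, where 42.2% of all genes had groups that did not overlap (20.8% higher, 21.4% lower). Without IgG replicate 2, IgG replicate 3 or 5E1 replicate 3, 3 members were called. In those fits 2305 of 16820, 2517 of 16896 and 2410 of 16619 genes tested were called. Without IgG replicate 1 or 5E1 replicate 1, 4 members were called, with 2497 of 16640 and 3704 of 16764 genes. Without 5E1 replicate 2, 5 members and 3489 of 16564 genes were called.

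**Figure D1:**
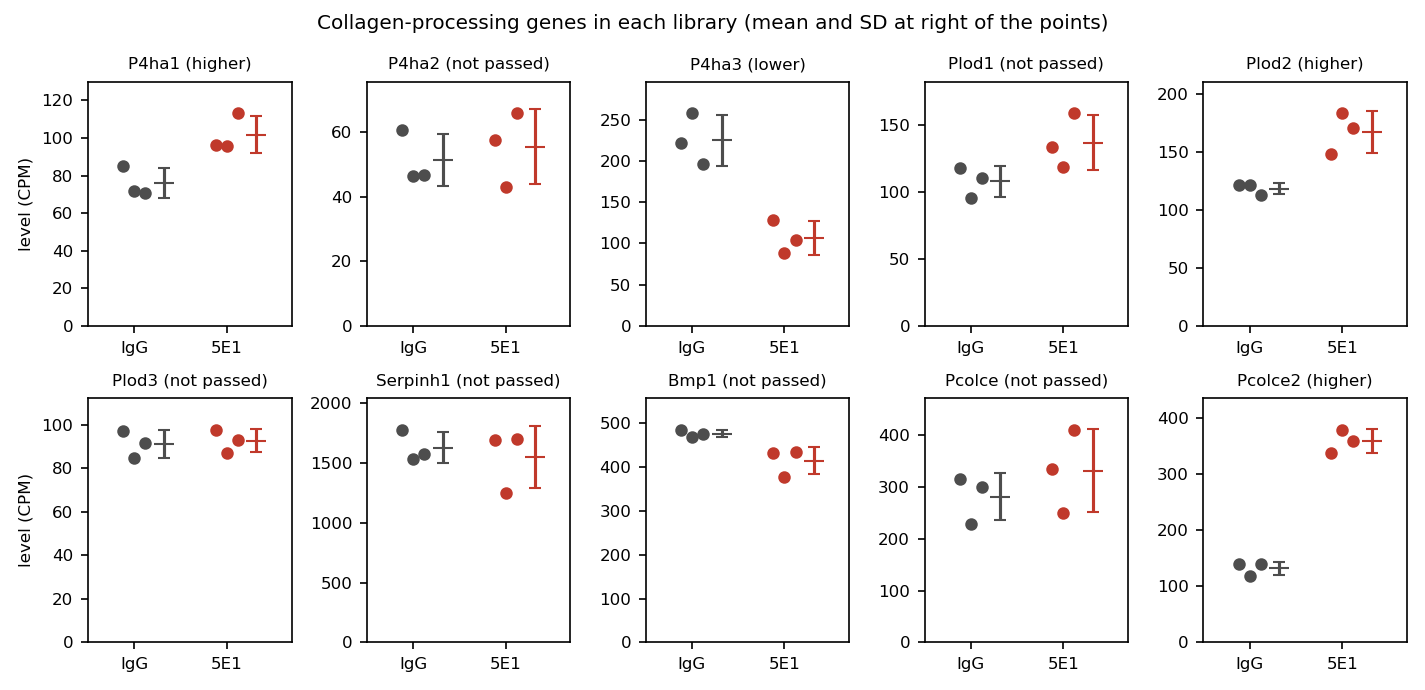
Level of each of the 10 genes (CPM, vertical axis from 0) in the 3 IgG libraries (grey) and the 3 5E1 libraries (red), with the mean and SD drawn to the right of the points. Pcolce2 lies at 119 to 139 CPM in IgG and at 337 to 379 CPM in 5E1, P4ha3 at 196 to 257 CPM in IgG and at 87.8 to 129 CPM in 5E1.

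The alpha subunits of prolyl 4-hydroxylase moved in opposite directions. P4ha3, an alpha subunit gene on chromosome 7 (mm10, 100285520 to 100319699), measured 221, 257 and 196 CPM in IgG replicates 1 to 3 and 129, 87.8 and 104 CPM in 5E1 replicates 1 to 3. Every 5E1 library lay below every IgG library. The mean fell from 225 ± 30.8 to 107 ± 20.6 CPM (SD, n = 3 each), 2.11-fold lower, with a log2 fold change of -1.08 (SE 0.15) and an edgeR adjusted p of 0.000939. P4ha1, the alpha subunit gene expressed most widely across tissues, lies on chromosome 10 (59323296 to 59373304). It measured 85.3, 71.7 and 70.7 CPM in IgG and 96.3, 95.8 and 113 CPM in 5E1, so all 5E1 libraries were above the IgG libraries. It rose 1.34-fold, with a log2 fold change of 0.42 (SE 0.10) and an edgeR adjusted p of 0.0138. The edgeR adjusted p was 0.0628 without IgG replicate 2, 0.0642 without IgG replicate 3 and 0.0639 without 5E1 replicate 3. P4ha2, the alpha subunit gene on chromosome 11 (54100095 to 54131665), measured 60.5, 46.5 and 46.6 CPM in IgG and 57.5, 43.0 and 65.8 CPM in 5E1, and the groups overlapped. Its log2 fold change was 0.11 (95% interval -0.26 to 0.48, edgeR adjusted p 0.672) and turned to -0.038 with library size alone and -0.037 without 5E1 replicate 3.

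The windows upstream of these 3 genes and of Pcolce2 are shown because they stand before members that rose, fell or did not pass within 1 pathway. Each is the 250 bases before a RefSeq gene start (GRCm38.p6, the assembly of mm10), 5′ to 3′ on the gene's strand, with capitals for the hypoxia response core (ACGTG or GCGTG, either strand). P4ha1 and P4ha2 are known as targets of hypoxia-inducible factors.
P4ha1, chr10:59323046-59323295, plus strand: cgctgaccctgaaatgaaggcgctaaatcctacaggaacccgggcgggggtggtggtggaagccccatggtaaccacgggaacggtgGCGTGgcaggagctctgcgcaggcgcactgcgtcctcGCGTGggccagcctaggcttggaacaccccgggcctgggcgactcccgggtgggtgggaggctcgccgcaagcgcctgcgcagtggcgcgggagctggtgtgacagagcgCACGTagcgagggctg
P4ha2, chr11:54100674-54100923, plus strand: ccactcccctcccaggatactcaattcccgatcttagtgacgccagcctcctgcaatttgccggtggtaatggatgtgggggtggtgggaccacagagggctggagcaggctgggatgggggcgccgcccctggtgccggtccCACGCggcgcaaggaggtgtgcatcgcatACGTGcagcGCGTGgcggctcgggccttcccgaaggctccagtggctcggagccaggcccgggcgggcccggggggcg
P4ha3, chr7:100285270-100285519, plus strand: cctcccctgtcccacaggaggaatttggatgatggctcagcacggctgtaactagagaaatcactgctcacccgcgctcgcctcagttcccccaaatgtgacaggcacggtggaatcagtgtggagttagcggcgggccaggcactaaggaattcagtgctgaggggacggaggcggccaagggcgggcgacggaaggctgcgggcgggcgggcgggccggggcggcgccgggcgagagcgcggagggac
Pcolce2, chr9:95637378-95637627, plus strand: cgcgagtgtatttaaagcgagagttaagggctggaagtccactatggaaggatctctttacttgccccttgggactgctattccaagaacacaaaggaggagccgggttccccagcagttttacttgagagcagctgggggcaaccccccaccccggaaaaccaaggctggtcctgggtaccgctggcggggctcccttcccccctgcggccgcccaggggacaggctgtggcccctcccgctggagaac
The core stood 3 times in the P4ha1 window (at -163, -126 and -16 from the start), 3 times in the P4ha2 window and nowhere in the P4ha3 and Pcolce2 windows. It was in the window of 6 of the 8 members found in the RefSeq table and in 38.6% of 32851 such windows. The 8 windows were 55.6% (Plod3) to 70% (P4ha2) G and C, against a median of 52.4% over all windows. The Plod3 window held the core 4 times, and Plod2 and Bmp1 had no window. Neither the GLI site GACCACCCA (in 0.225% of windows) nor the heat shock element GAANNTTC (in 6.69%), read on both strands, matched in any of the 8. The RefSeq starts of P4ha2, Pcolce2 and Pcolce (window chr5:137611405-137611654, minus strand) lie downstream of the GENCODE starts given for these genes. That of Plod1 (window chr4:147936777-147937026, minus strand) lies a few bases upstream. These matches are of letters and show no binding.

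Per kilobase of merged exon, P4ha3 was the leading alpha subunit in both groups and took a smaller share in 5E1. Merged exons join all annotated transcripts of a gene, so shares and orders between genes depend on that length. Which transcripts the cells used was not tested. Of the summed level of P4ha1, P4ha2 and P4ha3 per kilobase, P4ha3 made up 69.9%, 76.7% and 71.7% in IgG and 55.7%, 48.1% and 46.6% in 5E1. P4ha1 went from 18.8% ± 2.24 to 36.8% ± 4.40 of it, and P4ha2 from 8.37% ± 1.33 to 13.05% ± 1.54 (SD, n = 3 each). The summed level was 98.5 ± 10.1 CPM per kilobase in IgG and 67.7 ± 8.34 in 5E1. In reads not corrected for length, the ratio of P4ha3 to P4ha1 was 2.59, 3.59 and 2.77 in IgG and 1.34, 0.917 and 0.922 in 5E1, 2.84-fold lower. With 3 libraries against 3 the exact permutation test (two-sided) cannot go below 0.10, and that was its p. Over the 8 ratios computed here the Benjamini-Hochberg adjusted value of this exact test was 0.114, as it was for the 6 others whose groups did not overlap.

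**Figure D2:**
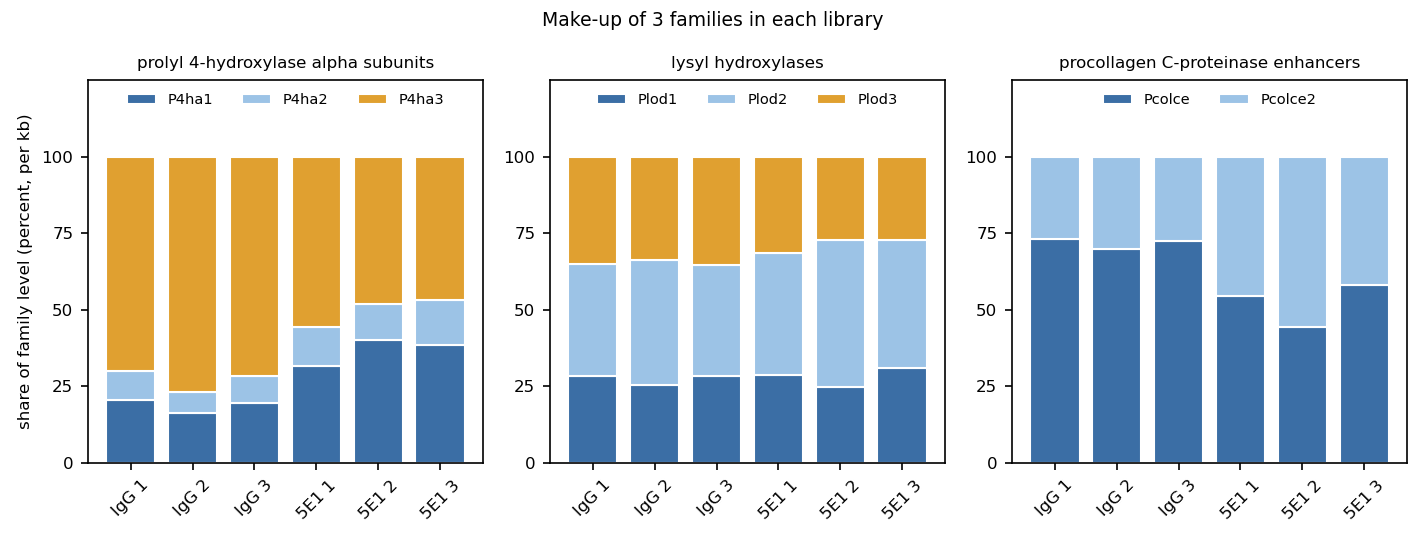
Share of each gene in the level of its family (percent of the summed CPM per kilobase, vertical axis) in each of the 6 libraries for prolyl 4-hydroxylase alpha subunits, lysyl hydroxylases and enhancers. The P4ha3 share is 69.9% to 76.7% in IgG and 46.6% to 55.7% in 5E1, and the Pcolce2 share 26.8% to 30.03% and 42.0% to 55.6%.

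Among the lysyl hydroxylases, Plod2 rose. Plod2 encodes the enzyme that acts on lysines of the collagen telopeptides, where crosslinks start, and is on chromosome 9 (92542223 to 92608428). Its level was 121, 121 and 112 CPM in IgG and 148, 183 and 169.95 CPM in 5E1. The lowest 5E1 library was above the highest IgG library, and the mean rose 1.41-fold from 118 ± 4.96 CPM to 167 ± 17.8 CPM, a log2 fold change of 0.50 with SE 0.10 (edgeR adjusted p 0.00427). Plod1, on chromosome 4 (147909753 to 147936767), whose enzyme acts on lysines of the helix, measured 118, 95.4 and 110.4 CPM in IgG and 134, 118 and 159 CPM in 5E1. The groups touched without overlapping, at 117.9 and 118.3 CPM. With a log2 fold change of 0.34 (95% interval 0.08 to 0.60), Plod1 did not pass (edgeR adjusted p 0.0605). It passed in 5 of 15 alternatives. These were the fits without 5E1 replicate 2 (edgeR adjusted p 0.0180), with the replicate number as a block (0.0383), with DESeq2 (0.0419), with at least 5 CPM in 3 libraries (0.0426) and with genes of at least 1 read (0.00913). The log2 fold change was 0.19 (edgeR adjusted p 0.192) with library size alone and 0.22 (0.225) without 5E1 replicate 3. Plod3, which encodes an enzyme that also adds sugars to hydroxylysine and lies on chromosome 5 (136987019 to 136996648), was at 91.3 ± 6.35 CPM in IgG and 92.7 ± 5.23 CPM in 5E1. Its log2 fold change was 0.02 (95% interval -0.17 to 0.21, edgeR adjusted p 0.888), and the sign turned with library size alone (-0.12), without IgG replicate 2 (-0.04) and without 5E1 replicate 1 (-0.02). Exons of Plod3 share 529 bases with Znhit1 and those of Plod2 share 346 bases with Gm38391, both on the opposite strand, and no source used here gives the strand setting of the counting.

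The lysyl hydroxylases shared their summed level more evenly than the prolyl hydroxylases did. Per kilobase, Plod2 made up 37.8% ± 2.42 of their summed level in IgG and 43.2% ± 4.26 in 5E1, and Plod3 34.8% ± 0.762 and 28.7% ± 2.40 (SD, n = 3 each). The ratio of Plod3 to Plod1 reads was 0.826, 0.888 and 0.831 in IgG and 0.731, 0.737 and 0.587 in 5E1, with no overlap (exact permutation p 0.10, the smallest possible). The ratio of Plod2 to Plod1 overlapped between groups, at 1.105 ± 0.142 and 1.24 ± 0.265 (exact permutation p 0.50, n = 3 each).

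Serpinh1, on chromosome 7 (99345376 to 99353239), was per kilobase the most abundant member in both groups. It measured 1778, 1532 and 1578 CPM in IgG and 1697, 1249 and 1697 CPM in 5E1. The groups overlapped, with 5E1 replicate 2 lowest of the 6, and the log2 fold change was -0.07 (95% interval -0.38 to 0.24, edgeR adjusted p 0.747). Without 5E1 replicate 2 the log2 fold change was 0.06 (edgeR adjusted p 0.772). Its main client chains measured higher means in 5E1. Col3a1 rose from 20591 ± 4137 to 32135 ± 7016 CPM (log2 fold change 0.64, edgeR adjusted p 0.0484), while Col1a1 (0.65, edgeR adjusted p 0.118) and Col1a2 (0.52, edgeR adjusted p 0.132) did not pass. The call of Col3a1 was lost, at edgeR adjusted p of 0.0778 to 0.166, on leaving out IgG replicate 2, IgG replicate 3, 5E1 replicate 1 or 5E1 replicate 3. It was also lost with the replicate block (edgeR adjusted p 0.0733), library size alone (0.0536), no robust estimation (0.0743) and the term for Y-linked reads (0.0772).

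Set against those chains, Serpinh1 reads were fewer in each 5E1 library. There were 0.0293, 0.0355 and 0.0335 reads of Serpinh1 per read of Col1a1, Col1a2 and Col3a1 together in IgG, and 0.0221, 0.0231 and 0.0171 in 5E1. The groups did not overlap and the ratio was 1.59-fold lower (exact permutation p 0.10, the smallest possible, n = 3 each). The same reading for prolyl hydroxylase, P4ha1, P4ha2 and P4ha3 reads over those of the partner subunit P4hb, gave 0.338 ± 0.0274 in IgG and 0.285 ± 0.0114 in 5E1, 1.19-fold lower with no overlap (exact permutation p 0.10). P4hb, which encodes protein disulfide isomerase, itself measured 1040 ± 21.9 and 926 ± 89.7 CPM (edgeR adjusted p 0.298).

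**Figure D3:**
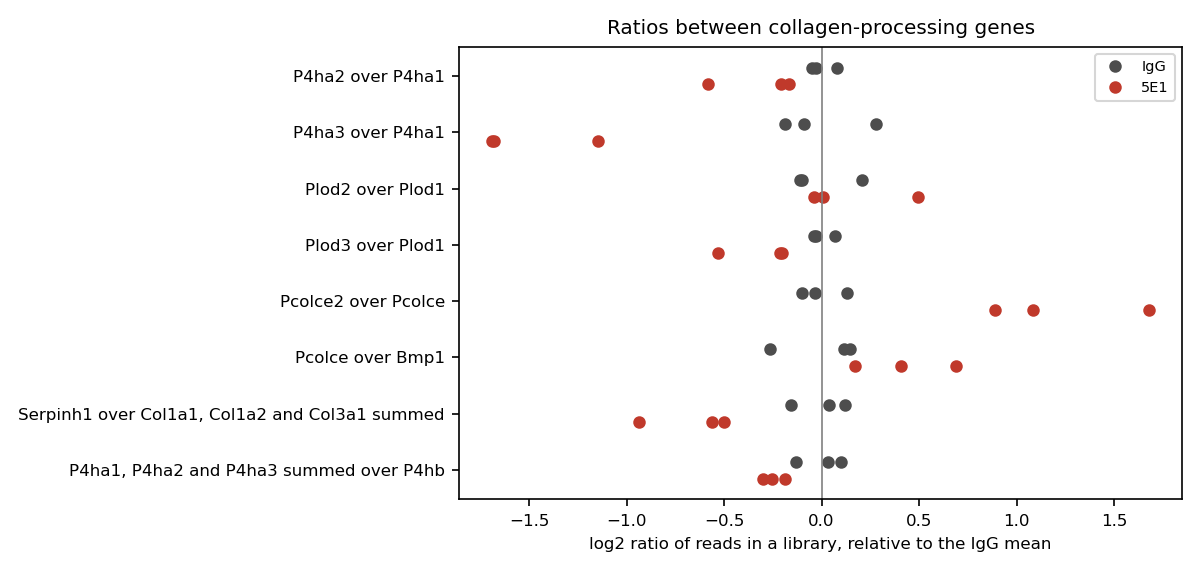
Log2 ratio of reads within each library, relative to the mean of the 3 IgG libraries (horizontal axis), for 8 ratios in IgG (grey) and 5E1 (red). Groups are apart for 7 ratios, the exception being Plod2 over Plod1, and Serpinh1 over its 3 collagen chains is lower in each 5E1 library.

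Of the genes that trim procollagen outside the cell, Pcolce2 rose most of the 10 members. Pcolce2, on chromosome 9 (95637601 to 95698096), encodes the second procollagen C-proteinase enhancer. It measured 139, 119 and 139 CPM in IgG and 337, 379 and 359.8 CPM in 5E1, far apart and with little spread inside each group. The mean rose 2.70-fold from 132 ± 11.7 CPM to 358 ± 21.001 CPM, a log2 fold change of 1.44 with SE 0.10 (edgeR adjusted p 1.75e-05). By p it ranked 16 of 16198 genes. Pcolce, on chromosome 5 (137605103 to 137613784), encodes the first enhancer and measured 315, 229 and 301 CPM in IgG and 336, 249.5 and 410.5 CPM in 5E1, and the groups overlapped. Its log2 fold change was 0.24 (95% interval -0.19 to 0.66, edgeR adjusted p 0.407), and with 1 library left out it ran from 0.05 (edgeR adjusted p 0.878) without 5E1 replicate 3 and 0.10 (0.759) without IgG replicate 2 to 0.40 (0.0794) without 5E1 replicate 2. With library size alone it was 0.08. Exons of Pcolce share 112 bases with Fbxo24 and Gm36266, so some of its reads may have been counted as ambiguous.

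Bmp1, the protease gene on chromosome 14 (70474558 to 70520234), measured 485, 469.6 and 475 CPM in IgG and 432, 378 and 435 CPM in 5E1. Every 5E1 library was below the IgG libraries, but the log2 fold change of -0.20 (95% interval -0.41 to 0.01) did not pass (edgeR adjusted p 0.158). With library size alone it was -0.35 and passed (edgeR adjusted p 0.0186), a scaling under which the median over all genes was -0.14. Pcolce2 took 26.8%, 30.03% and 27.7% of the enhancers' summed level per kilobase in IgG and 45.3%, 55.6% and 42.0% in 5E1. By this measure, which rests on merged exon length, the split with Pcolce in 5E1 was near even. That summed level was 102 ± 14.6 CPM per kilobase in IgG and 164 ± 19.3 in 5E1 (SD, n = 3 each). Reads of Pcolce per read of Bmp1 were 0.649, 0.488 and 0.634 in IgG and 0.777, 0.659 and 0.944 in 5E1 (exact permutation p 0.10, the smallest possible).

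**Figure D4:**
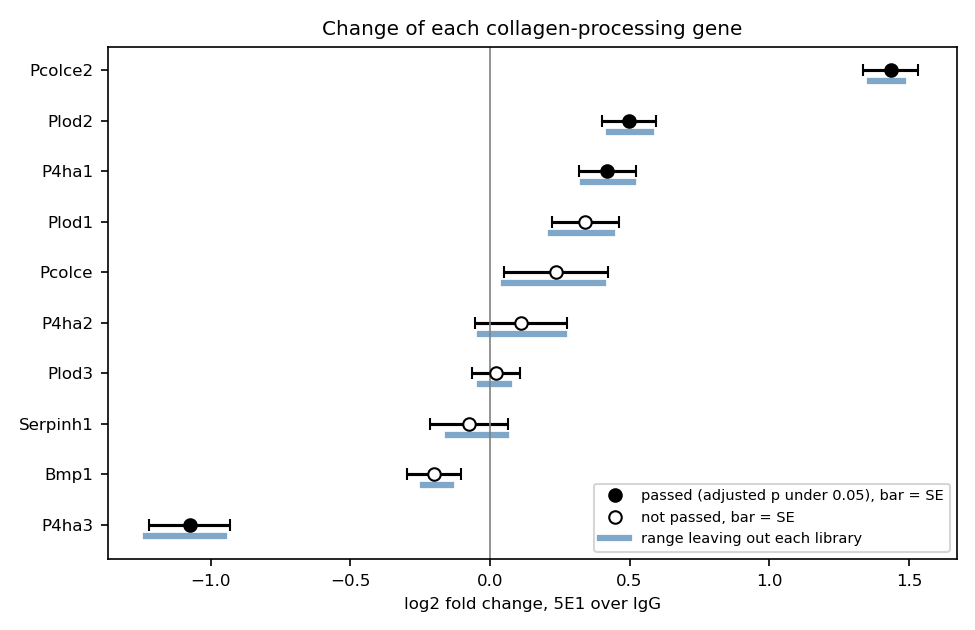
Log2 fold change of 5E1 over IgG (horizontal axis) with its SE for each of the 10 genes, filled where the edgeR adjusted p is under 0.05, and in blue the range over fits that leave out 1 of the 6 libraries. P4ha3 (-1.23 to -0.95) and Pcolce2 (1.36 to 1.48) stay far from 0 in every such fit, while the ranges of P4ha2, Plod3 and Serpinh1 cross 0.

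Levels per kilobase put the members in a different order in each group. In IgG the order was Serpinh1 (667 ± 53.5 CPM per kilobase), Pcolce (73.7 ± 12.04), P4ha3 (71.8 ± 9.81), Bmp1 (53.7 ± 0.892), Pcolce2 (28.6 ± 2.53), Plod2 (21.9 ± 0.921), Plod3 (20.2 ± 1.41), P4ha1 (18.46 ± 1.98), Plod1 (15.95 ± 1.698) and P4ha2 (8.21 ± 1.29). Neighbours whose libraries overlapped were Pcolce with P4ha3, Plod2 with Plod3, Plod3 with P4ha1, and P4ha1 with Plod1. In 5E1, P4ha3 had rank 5 at 34.1 ± 6.56 CPM per kilobase, overlapping Plod2 (30.9 ± 3.31), and Pcolce2 had rank 3 at 77.5 ± 4.54, overlapping Pcolce (86.8 ± 21.1). Serpinh1 led there too, at 634 ± 106 CPM per kilobase, and P4ha2 was again last at 8.88 ± 1.85.

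Most partners in collagen modification and folding, like most genes tested, did not pass the test. Of 16 partners tested, 3 rose and none fell, against 12.1% and 11.1% of all genes tested. The median of the 16 on the log2 scale was 0.06. Colgalt2, which encodes a collagen galactosyltransferase, rose from 5.63 ± 1.65 to 18.7 ± 2.69 CPM (log2 fold change 1.72, edgeR adjusted p 0.000364). Tmem38b, which encodes an ion channel of the endoplasmic reticulum whose loss in people causes brittle bones, rose from 16.9 ± 2.10 to 35.6 ± 5.04 CPM (1.07, edgeR adjusted p 0.000441). P3h2, a prolyl 3-hydroxylase gene, had a log2 fold change of 0.41 and an edgeR adjusted p of 0.0499, a call lost on leaving out any of the IgG libraries, 5E1 replicate 2 or 5E1 replicate 3 (0.0557 to 0.185), and kept in 7 of 15 alternatives. The prolyl 3-hydroxylation complex of P3h1 (-0.14), Crtap (0.00082) and Ppib (0.07) did not pass, nor did the chaperone gene Fkbp10 (-0.24), at edgeR adjusted p of 0.173 to 0.996. With library size alone 2 partners were called lower, and Crtap and Ppib turned negative.

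Among 14 tested genes of procollagen export, 1 fell and none rose, with a median of -0.10. Over all genes tested, 11.1% fell and 12.1% rose. Sec23a, which encodes a COPII coat subunit that carries procollagen out of the endoplasmic reticulum, fell from 116 ± 8.05 to 90.7 ± 4.52 CPM (log2 fold change -0.35, edgeR adjusted p 0.0139, and 0.0678 or 0.0508 without IgG replicate 1 or 2). Its coat partners Sec24d (-0.28, edgeR adjusted p 0.05001) and Sec13 (-0.27, edgeR adjusted p 0.0543) did not pass. Both were called, with 3 genes lower in all, without 5E1 replicate 1, and 5 genes were lower with library size alone. Without 5E1 replicate 2, 1 gene of the list was called higher.

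Of 7 tested genes of other procollagen proteinases, 3 rose and none fell, against 12.1% and 11.1% of all genes tested. Adamts2, the main N-proteinase gene, rose from 1087 ± 79.2 to 1483 ± 222 CPM (log2 fold change 0.45, edgeR adjusted p 0.0302), Adamts3 rose by 0.70 (edgeR adjusted p 0.0141) and the proprotein convertase gene Pcsk6 by 0.57 (edgeR adjusted p 0.0152). The call of Adamts2 was lost with the replicate block (edgeR adjusted p 0.0658), with library size alone (0.0665) and on leaving out any IgG library or 5E1 replicate 3 (0.0681 to 0.119). Without 5E1 replicate 3 none of the 3 passed, and without IgG replicate 1 Pcsk6 alone did. The Bmp1 paralogue Tll1 was near the detection limit, at 0.862 ± 0.492 and 1.41 ± 0.582 CPM. Of 11 fibrillar collagen chains 3 rose (Col5a2 at 0.55, Col5a1 at 0.47 and Col3a1) and none fell. The number higher was 0 without IgG replicate 2 or 3, 1 without 5E1 replicate 1 or 3, and 5 without 5E1 replicate 2. In addition 1 chain was called lower without 5E1 replicate 2 or 3, with the replicate block, with limma-voom and with genes of at least 1 read. Col5a1 kept its call in 6 of 15 alternatives and Col5a2 in 13.

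**Figure D5:**
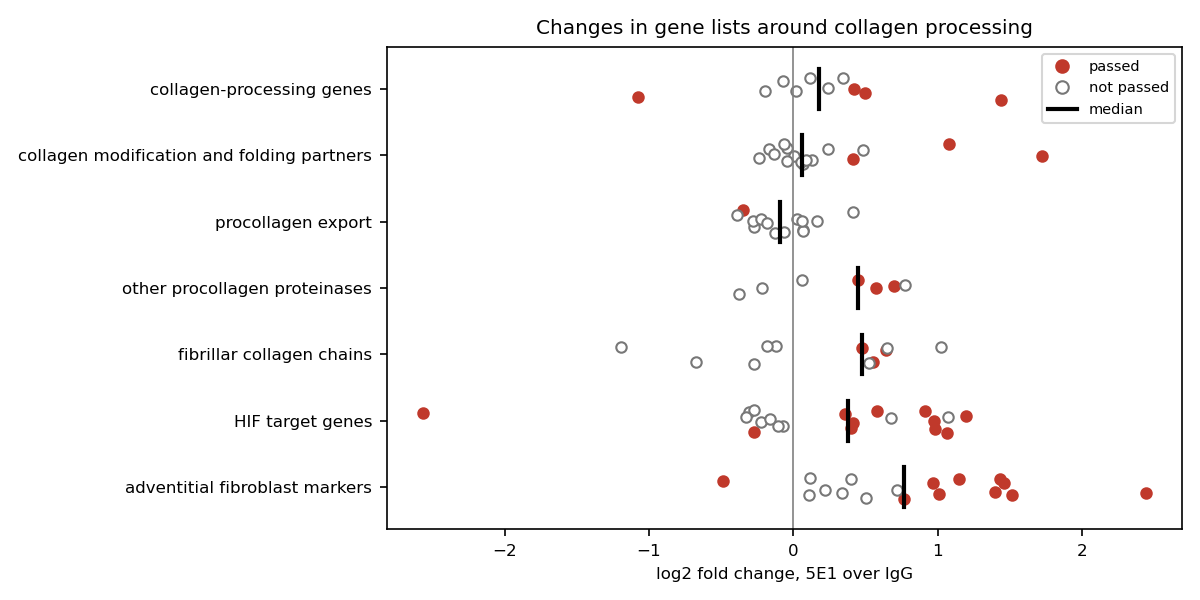
Log2 fold change of 5E1 over IgG (horizontal axis) for the 10 collagen-processing genes and for 6 gene lists around them, 1 point per tested gene, red where the edgeR adjusted p is under 0.05, with the list median as a black bar. Partners (median 0.06) and export genes (-0.10) centre near 0, and adventitial fibroblast markers (0.76) lie mostly to the right.

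P4ha1, P4ha2, Plod1 and Plod2 are known hypoxia-inducible genes, and the other targets of hypoxia-inducible factors moved both ways. Of 20 tested, 9 rose and 2 fell, against 12.1% and 11.1% of all genes tested. The log2 fold changes of the 20 had a median of 0.38. Ddit4 (0.98) and Ndrg1 (0.98), both stress-induced genes, rose, and Egln3, which encodes an oxygen-sensing prolyl hydroxylase that acts on the factor itself, fell from 63.4 ± 7.78 to 10.6 ± 1.75 CPM (log2 fold change -2.57, edgeR adjusted p 6.32e-06). Without IgG replicate 2, 5 rose, and with library size alone 5 rose and 8 fell. The number lower was 1 without IgG replicate 1, IgG replicate 3 or 5E1 replicate 3. It was also 1 with RLE size factors, with at least 5 CPM in 3 libraries and with the replicate block. Genes of glucose use on this list, singled out after their values were seen, went both ways. Slc2a1 (1.06), a glucose transporter gene, rose, as did Pfkfb3 (0.58), Pdk1 (0.40) and Aldoa (0.36), at edgeR adjusted p of 0.00641 to 0.0484. Gapdh fell (-0.27, edgeR adjusted p 0.0449), and Eno1 (-0.28), Pgk1 (-0.23), Tpi1 (-0.17) and Ldha (-0.07) did not pass. Egln3 kept its call in 15 of 15 alternatives, so Gapdh did not pass in the fits with 1 gene lower.

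Pcolce2 is known as a transcript of adventitial fibroblasts, the cells that sheathe lung vessels and airways. Other markers of those cells rose in 9 of 17 tested members and fell in 1, against 12.1% and 11.1% of all genes tested. The marker that fell was Cd34 (-0.49, chosen after its value was seen). The summed level of the 17 markers was 6285 to 9344 CPM in IgG and 12898 to 16022 CPM in 5E1. Mgp (1.46), Igfbp6 (2.44) and Gsn (1.51) had the smallest p. The number higher was 6 without IgG replicate 3 or 5E1 replicate 3, and 7 without IgG replicate 2 or 5E1 replicate 1. It was 10 without IgG replicate 1 or 5E1 replicate 2, and 7 with library size alone. Leaving out 5E1 replicate 2 or any of the IgG libraries ended the call of Cd34. The part of these cells in the Pcolce2 result was not tested.

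The genes whose pattern over the 6 libraries was most like that of Pcolce2, among 10487 with a mean of at least 5 CPM, were Spint2, Mgp and Cpne7, with a root mean square difference of centred log2 CPM of 0.0759, 0.0874 and 0.0970. Spint2, a serine protease inhibitor gene, went from 4.92 ± 0.620 to 14.4 ± 2.06 CPM, and Mgp, a matrix Gla protein gene, from 1159 ± 192 to 3189 ± 151 CPM. Most like P4ha3 were Tenm4 (0.0612), Paqr8 (0.0618) and Zfp41 (0.0747). Tenm4, a teneurin gene, went from 223 ± 39.9 to 112 ± 23.2 CPM. Likeness here is over 6 libraries in 2 groups.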

How the data were processed

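Messenger RNA was sequenced from sorted EGFP+ lung cells, with 3 IgG and 3 5E1 libraries grouped by their titles. Each library has a deposited table of raw read counts by gene symbol. The submitters' processing notes name mm10 and, with no role given, HTSeq 0.6.0, STAR 2.5.0c, R 3.5.1, Picard 1.126, DESeq2 1.10.0 and bedtools 2.17.0. For annotation, strand setting and duplicate handling, the answer is not given in the sources used here. Per the labels' protocols, the library kit was stranded and took mRNA. The 5 HTSeq summary lines (36.4% to 54.7% of reads, mostly unaligned) were left out. Replicates differed by more than sampling noise (chi-square per degree of freedom 14.8 to 18.0 among IgG and 17.8 to 50.5 among 5E1 libraries). The pairs with 5E1 replicate 2 gave 37.1 and 50.5, and 5E1 replicates 1 and 3 gave 17.8.

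Genes passing filterByExpr (minimum count 10, minimum total 15) were scaled by TMM and fitted with edgeR 4.0.16 in R 4.3.3 (robust glmQLFit, glmQLFTest, group as the only term), with Benjamini-Hochberg adjustment over all genes tested and a threshold of 0.05. Tests are two-sided. Log2 fold changes use a prior count of 0.125, each SE divides the unshrunken coefficient by the root of its F, and the 95% interval uses the test's degrees of freedom. The fit was tested on simulated data. Levels per kilobase use merged exons of GENCODE M21 (GRCm38), which matched 96.8% of genes tested. Ratios use reads within a library.

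The members and lists were chosen with earlier results of these data known. The rule names the 10 members, the 3 smallest p of each list, a fixed set of partner, collagen and marker genes, and the 3 genes most like the called members with the highest and the lowest change (with 0.5 CPM added before logs, Gm and Rik symbols skipped). Alternatives were DESeq2 1.42.0, limma-voom (limma 3.58.1), library size alone, RLE factors, looser and stricter low-count filters, no robust estimation, a replicate block, each library left out and, added after seeing the data, a term for the 2 libraries with almost no Y-linked reads. Their effect is given under the closing section.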

Additional observations from a re-analysis of the deposited data

How the results depend on the processing

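P4ha3, Plod2 and Pcolce2 kept their direction and their call in each of 15 alternatives, with log2 fold changes of -1.23 to -0.95, 0.35 to 0.58 and 1.29 to 1.48. P4ha1 kept its call in 12 of 15. With library size alone 2 members were called lower, the second being Bmp1, and 3274 of all genes were called lower, so that 28.6% of calls were higher in place of 52.3%. With 1 library left out, genes called ranged from 2305 to 3704, those higher from 1221 to 1885 and those lower from 1073 to 1819. The cause of these ranges was not tested. The replicate block called 5 members (4 higher, 1 lower, adding Plod1) and 3220 genes, gained the call of Sec13 and lost those of Adamts2, Col5a1 and Col3a1, and the cause was not tested. Same-numbered libraries did not deviate together (correlations -0.106, -0.0365 and -0.0854). With 3 libraries per group these values cannot decide whether the numbers pair the libraries. Signs turned for members with log2 fold changes near 0. P4ha2 was -0.038 with library size alone and -0.037 to 0.27 with 1 library left out. Plod3 was -0.12 and -0.035 to 0.067 in the same fits, and Serpinh1 was -0.15 to 0.057 with 1 library left out. Among other named genes, Crtap turned to -0.15 with library size alone, -0.0022 with limma-voom, -0.016 with genes of at least 1 read, -0.0034 with the replicate block and -0.00058 with the term for Y-linked reads. Ppib was -0.077 with library size alone. With 1 library left out the ranges were -0.056 to 0.098 for Crtap, -0.23 to 0.025 for P3h1, -0.045 to 0.56 for Epcam and -0.032 to 1.26 for Emcn, and for these turns the cause was not tested. Of the 8 ratios, 7 kept their direction with any library left out, and Plod2 over Plod1 had a log2 difference of -0.014 without 5E1 replicate 2. Members had 830 to 52193 reads per library, and PCR copies were not told apart, so counting error is a lower limit on the error.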

Other observations

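General chaperones of the endoplasmic reticulum did not move together. Of 18 tested, 4 rose and 2 fell, against 12.1% and 11.1% of all genes tested, and the median on the log2 scale was 0.02. Pdia4, a disulfide isomerase gene, fell from 152 ± 6.45 to 119 ± 3.29 CPM (SD, n = 3 each, edgeR adjusted p 0.00942). Hyou1, a chaperone gene of the HSP70 family, fell from 156 ± 3.32 to 127 ± 3.37 CPM (edgeR adjusted p 0.0184). The call of Hyou1 was lost without any 1 of the IgG libraries or 5E1 replicate 3 (edgeR adjusted p 0.0527 to 0.0646). That of Pdia4 was lost without IgG replicate 1 (0.0550). Ddit3, a transcription factor gene of the stress response, rose by a log2 fold change of 0.43 (edgeR adjusted p 0.0290), a call lost without IgG replicate 2 or 3 or any 5E1 replicate (0.0513 to 0.105). None of the 18 was called higher without IgG replicate 2 or 5E1 replicate 2, 1 was without IgG replicate 1 or 3 or 5E1 replicate 3, and 2 were without 5E1 replicate 1. The number lower was 0 without IgG replicate 1 and 1 without IgG replicate 2 or 3 or 5E1 replicate 3, and with library size alone 6 were lower and 0 higher.

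Target genes of TGF-beta went both ways. Of 16 tested, 4 rose and 4 fell, against 12.1% and 11.1% of all genes tested, and the median on the log2 scale was 0.06. Tgfbi, which encodes a secreted adhesion protein, fell from 5344 ± 565 to 2225 ± 88.0 CPM (log2 fold change -1.26), whereas Postn, which encodes periostin, rose from 1555 ± 113 to 3712 ± 438 CPM (1.25) and Lox, which encodes a collagen and elastin crosslinking enzyme, from 652 ± 46.3 to 1621 ± 432 CPM (1.31), at edgeR adjusted p of at most 0.00105. With 1 library left out 3 or 4 of the 16 rose and 3 or 4 fell. With DESeq2 and with genes of at least 1 read 6 rose and 4 fell, and with library size alone 3 rose and 5 fell.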
